A study of Mus musculus with 9 samples.

Results

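Kidneys of wild-type (WT) mice given pristane were compared with kidneys of WT mice given saline, gene by gene, over 6 of the 9 RNA-seq libraries of the study. Pristane is a hydrocarbon oil that, injected into the peritoneum, induces a lupus-like disease in mice, and the pristane-induced-lupus mice are called PIL mice here. The members were the 3 PIL libraries and the 3 saline libraries, chosen by the prefix of their titles, and every gene with enough counts, which was 14069 of the 21935 genes in the table (coordinates below are those of the table, on mm10). Both groups were C57BL/6 and labelled wild type and female, were injected once at 4 weeks of age with 0.5 ml of pristane or of saline, and gave their kidneys 31 weeks later. The treatment label of the saline group reads none, whereas the protocol gives saline. The other 3 libraries came from Gsdmd-/- mice of the same strain, pristane-treated by the study's methods, whose treatment label also reads none. Those 3 entered the filter on low counts, the scaling of libraries and the estimate of the spread within groups. Their values stand beside the members' where they help to read them. The Gsdmd-/- libraries had a coefficient of biological variation of 0.103 in edgeR, smaller than that of the saline (0.241) and PIL (0.296) libraries. The shared estimate was thus lowered by a group outside the comparison. Whether each library is 1 mouse is not stated, so the spread behind each error and p-value is that between libraries and may be technical. In whole kidney, more cells of a type and more RNA per cell cannot be told apart.

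Lupus nephritis is an inflammation of the kidney in which immune complexes lodge in the glomerulus, the filtering tuft, and activate complement and Fc receptors, so that macrophages, lymphocytes and plasma cells gather and tubules downstream are damaged. Most of the RNA of a mouse kidney comes from the proximal tubule, whose cells take back glucose, amino acids and phosphate, oxidise fatty acids, and carry and conjugate drugs and other organic anions. Many of these transporters and enzymes differ between male and female mouse kidney under the control of androgens.

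Totals ran from 13311063 to 16299328 counts per library. On the first principal component of the 6 libraries (55.7% of the variance) the saline libraries lay between -51.6 and -28.6, PIL 1 and PIL 2 at 73.6 and 46.0, and PIL 3 at 3.13, nearest to saline. A gene was called at a Benjamini-Hochberg adjusted p under 0.05 in edgeR's quasi-likelihood test over all 14069 genes. The labels did not hold in full. Of Y-linked genes, Ddx3y, Eif2s3y, Uty and Kdm5d together had 136, 141 and 208 CPM (counts scaled to library size by TMM) in the 3 saline libraries and 0 counts in each PIL and Gsdmd-/- library, where 0 counts allow up to 0.227 CPM (3 counts; counting error only). All mice are labelled female, but the 3 saline libraries held Y-linked reads, which female tissue lacks, and the PIL libraries held none. Sex as read from these genes thus differed between the groups (exact permutation test of the summed CPM, two-sided p = 0.1, the smallest that 3 against 3 allows). Sex and whatever moves with it cannot be told apart from pristane. The proximal tubule list, which marks kidney, summed to 22862, 19044 and 26283 CPM in saline and 14195, 19129.8 and 26634 CPM in PIL libraries.

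The promoters of 4 genes on which the results turn are shown first, from RefSeq (GRCm38.p6), each 300 bases from 250 before to 50 after the start site. Slco1a1 and Cyp4b1 stand for the genes that were lower in every PIL library, Ugt1a2 for those higher in every PIL library, and Spp1 for those highest in PIL 1. Capitals mark AGAACA (or its reverse complement TGTTCT), the half-site that androgen and glucocorticoid receptors share, and GAGGAAGT, bound by the myeloid factor PU.1, both searched on both strands, and the searched words do not overlap each other.
Slco1a1 (chr6:141946913-141947212, minus strand): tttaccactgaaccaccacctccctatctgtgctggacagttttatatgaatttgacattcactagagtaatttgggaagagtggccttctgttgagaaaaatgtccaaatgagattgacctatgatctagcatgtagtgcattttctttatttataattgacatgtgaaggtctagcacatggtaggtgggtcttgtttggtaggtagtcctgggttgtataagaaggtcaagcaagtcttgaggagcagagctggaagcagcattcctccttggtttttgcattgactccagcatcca
Cyp4b1 (chr4:115647672-115647971, minus strand): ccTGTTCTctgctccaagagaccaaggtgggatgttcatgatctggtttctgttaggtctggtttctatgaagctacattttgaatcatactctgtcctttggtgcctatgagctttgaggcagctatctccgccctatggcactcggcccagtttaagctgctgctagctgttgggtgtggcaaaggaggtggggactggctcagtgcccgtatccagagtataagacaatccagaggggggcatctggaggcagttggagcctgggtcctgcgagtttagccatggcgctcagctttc
Ugt1a2 (chr1:88200361-88200660, plus strand): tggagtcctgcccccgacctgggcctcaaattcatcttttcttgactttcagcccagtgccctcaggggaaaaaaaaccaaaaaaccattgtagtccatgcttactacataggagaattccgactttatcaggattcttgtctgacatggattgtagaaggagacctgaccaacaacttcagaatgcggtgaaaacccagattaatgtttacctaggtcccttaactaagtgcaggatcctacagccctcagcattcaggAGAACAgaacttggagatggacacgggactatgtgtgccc
Spp1 (chr5:104434861-104435160, plus strand): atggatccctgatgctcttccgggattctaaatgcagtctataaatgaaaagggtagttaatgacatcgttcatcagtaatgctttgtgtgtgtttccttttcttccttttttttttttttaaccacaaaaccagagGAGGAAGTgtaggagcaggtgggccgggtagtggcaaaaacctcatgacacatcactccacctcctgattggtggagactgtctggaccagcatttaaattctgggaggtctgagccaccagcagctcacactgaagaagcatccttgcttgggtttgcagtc
The half-site stood in the windows of 21.3% of the 27025 genes with a window, and in 1 of the 9 genes of the male-biased list that have one. GAGGAAGT stood in 3.69% of all genes, in 2 of the 26 macrophage genes and in 3 of the 14 Fc receptor and ITAM genes with a window. A match describes letters and no binding.

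In PIL kidney 630 genes were called higher and 442 lower than in saline kidney, which was 4.48% and 3.14% of the genes tested and 7.62% in all. The fold change was over 2 in 447 of the higher and 197 of the lower genes, and the median log2 fold change was 1.41 and -0.92 in them, against 0.01 over all genes tested. The 3 PIL libraries lay wholly above the 3 saline libraries in 1891 genes (13.4%) and wholly below in 1652 (11.7%). Called genes did not shift alike in the 3 PIL libraries. Over the 630 higher genes the median log2 difference from the saline mean was 1.59 in PIL 1, 1.43 in PIL 2 and 0.88 in PIL 3, and the highest value was in PIL 1 for 390, in PIL 2 for 158 and in PIL 3 for 82. Over the 442 lower genes it was -1.16, -0.92 and -0.76. The calls rested on single libraries to a large degree. The number called was 239 without saline 1, 709 without saline 2, 557 without saline 3, 709 without PIL 1, 226 without PIL 2 and 3684 without PIL 3, and 567, 599 and 559 without Gsdmd-/- 1, 2 and 3. With the 6 libraries alone 130 were called, 49 higher and 81 lower. In all 9 of the fits that left out 1 library, 178 genes (1.27% of those tested) were called, 69 higher and 109 lower. Over these 69 the medians of PIL 1, 2 and 3 lay closer together, at 1.82, 1.76 and 1.51. The selection itself favours this, since a call had to hold without each PIL library in turn. The Gsdmd-/- libraries, which also held no Y-linked counts, were at 1.41, 1.39 and 1.45 over the 69. Over all 630 higher genes they were at 0.568, 0.421 and 0.552. Over the 109 they were at -1.32, -1.26 and -1.35, against -0.604, -0.618 and -0.611 over all 442 lower genes.

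**Figure D1:**
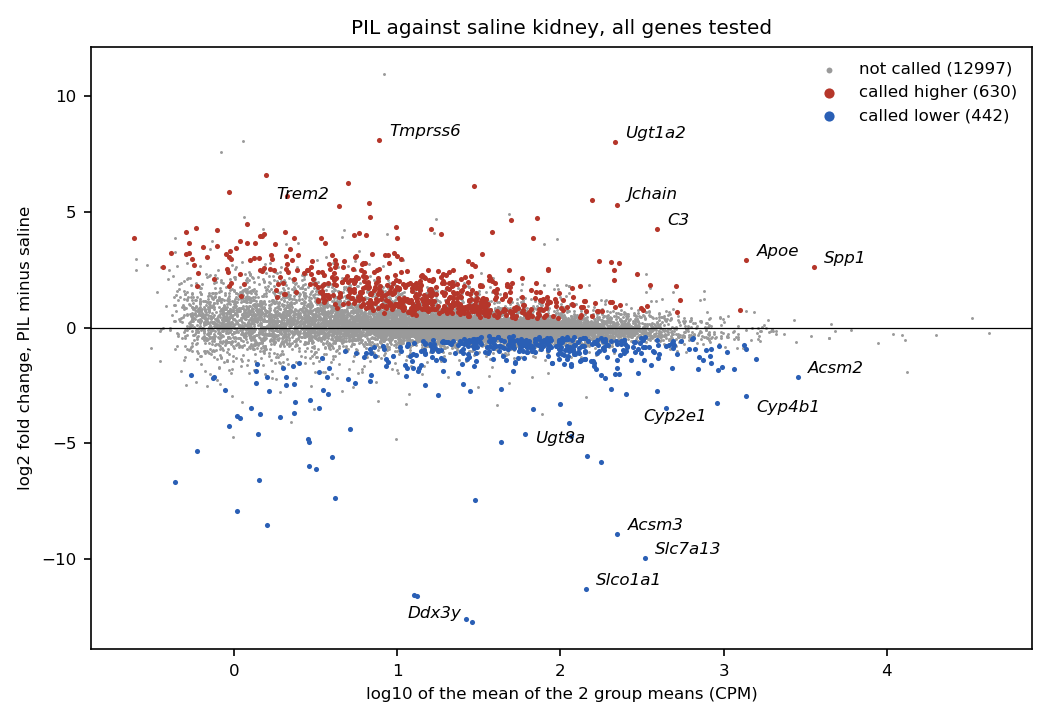
Each point is 1 of the 14069 genes tested, with the log10 of the average of the PIL and saline means (CPM) on the x axis and edgeR's log2 fold change, PIL minus saline, on the y axis. Red marks the 630 genes called higher and blue the 442 called lower at an adjusted p under 0.05, and the 4 Y-linked genes lie at the bottom with Ddx3y named.

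**Figure D2:**
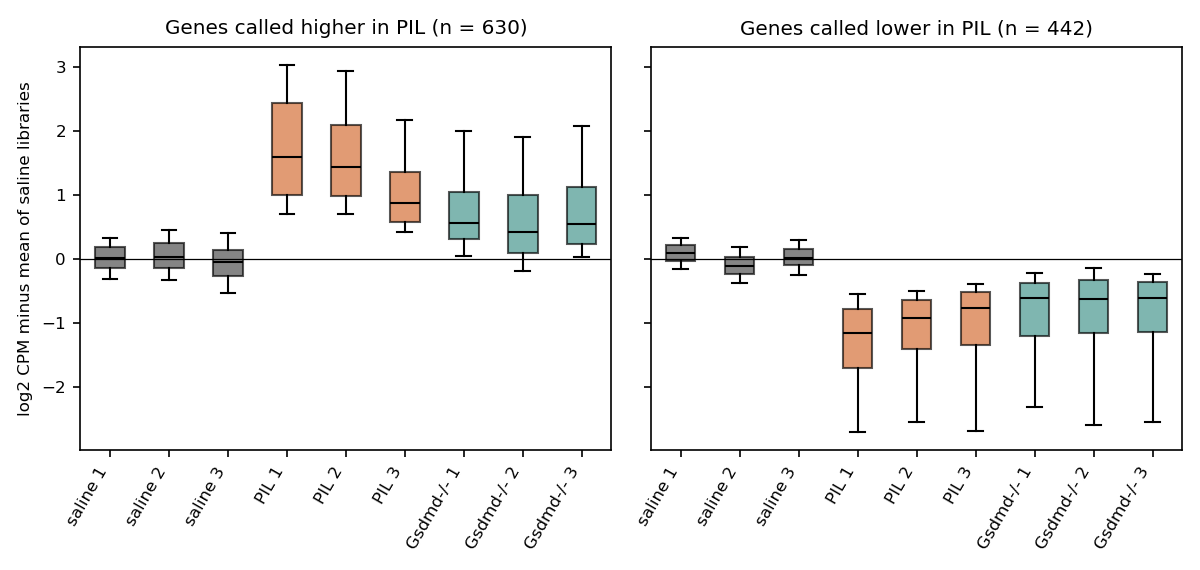
Log2 CPM minus the mean of the saline libraries, for the genes called higher (left, 630) and lower (right, 442), in each of the 9 libraries. Boxes span the quartiles with the median, whiskers the 10th to 90th percentile, and the median of the higher genes falls from 1.59 in PIL 1 to 0.88 in PIL 3.

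Apart from the Y chromosome, the deepest falls among abundant genes were in proximal tubule transporters and enzymes that male mice express at a higher level. Slco1a1 (ENSMUSG00000041698, chr6:141907282-141946962), an organic anion transporter, had 426, 232 and 199 CPM in the 3 saline libraries and 0.168, 0.119 and 0 CPM in the 3 PIL libraries. It was all but absent from PIL kidney (edgeR, log2 fold change -11.31, standard error 0.59, adjusted p = 2.36e-05). Slc7a13 (ENSMUSG00000041052, chr4:19818725-19842218), an acidic amino acid and cystine transporter of the last proximal segment, had 801, 515 and 657 CPM in saline and 0.336, 0.716 and 0.978 CPM in PIL libraries (log2 fold change -9.95, standard error 0.48, adjusted p = 1.39e-05). Per length it fell from 296 ± 67.1 to 0.329 ± 0.144 FPKM (mean ± SD, n = 3). The fatty acid hydroxylase Cyp4b1 (ENSMUSG00000028713, chr4:115624725-115647723) was among the most abundant of these genes, with 2609.9, 2578 and 2085 CPM in saline and 257, 438 and 252 CPM in PIL libraries (log2 fold change -2.94, standard error 0.26, adjusted p = 0.000892). Its groups lay far apart. In the Gsdmd-/- libraries Cyp4b1 was at 476, 546 and 363 CPM and Slco1a1 at 0.274, 0.0757 and 0 CPM, both near PIL. Of the 13 genes of the male-biased list, all tested, 11 were called lower (3.14% of all genes were) and the median log2 fold change was -4.14. Acsm3, a medium-chain acyl-CoA synthetase, changed by -8.94, Cyp2j13 by -5.81, the oxysterol hydroxylase Cyp7b1 by -5.54, Cyp4a12a, which makes 20-HETE, by -4.93 and the transporter Slc22a30 by -4.14 on the log2 scale, all called. Cyp2e1, the ethanol-inducible P450, changed by -3.25, the peroxisomal coenzyme A diphosphatase Nudt19 by -1.73 and Odc1, the first enzyme of polyamine synthesis, by -1.68 (adjusted p = 0.0498). Kap and Cyp4a12b were the members that did not pass. Kap, the androgen-regulated kidney protein, had 21309, 23267 and 18343 CPM in saline and 1039, 6647 and 9007 CPM in PIL libraries (adjusted p = 0.0798), so its groups did not overlap but PIL 1 stood apart. Reads of Cyp4a12a and Cyp4a12b, close paralogs, may be shared, and so may those of Slc22a30 and its neighbours. Pzp, a protease inhibitor outside the list, was at 75.9, 49.3 and 52.5 CPM in saline and 0.280, 0.418 and 0.301 CPM in PIL libraries (adjusted p = 2.97e-06).

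Of 7 genes that female mice express more in kidney, 2 were called higher (4.48% of all genes were), and 0 on the 6 libraries alone. Their median log2 fold change was 0.36, with 4 above 0 and 3 below. The amino acid transporter Slc7a12 had 6.91, 3.51 and 5.08 CPM in saline and 24.0, 165 and 225 CPM in PIL libraries (log2 fold change 4.74, standard error 0.75, adjusted p = 0.0100). The prolactin receptor Prlr had 2.28, 3.29 and 20.4 CPM and 111, 120.4 and 149.8 CPM (log2 fold change 3.86, standard error 0.68, adjusted p = 0.0138), with saline 3 nearest to PIL. Cyp4a14, a fatty acid hydroxylase, was at 47.8, 25.8 and 260.2 and 453, 614 and 606 CPM and did not pass (adjusted p = 0.0753). The Y-linked reads moved with these genes as with the male-biased ones, and their part in either result cannot be told apart from that of pristane. Of the 14 called genes named in this and the preceding paragraph, 11 were called in all 9 fits that left out 1 library. Odc1 lost its call without saline 1, saline 3, PIL 1, PIL 2 or any Gsdmd-/- library, and Cyp2e1 and Prlr lost theirs without PIL 2, with adjusted p between 0.0501 and 0.161.

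Transporters and conjugating enzymes moved in both directions. Of 30 Slc22, Slco and Abc transporters 7 were called higher and 9 lower, and of 40 conjugation and glutathione enzymes 9 were higher and 12 lower, each several times the share over all genes (4.48% higher and 3.14% lower). Ugt1a2 (ENSMUSG00000090171, chr1:88200601-88218997), a glucuronosyltransferase, had 0.515, 0.149 and 4.13 CPM in saline and 134, 369 and 788 CPM in PIL libraries. Its rise was large in every PIL library, and saline 3 had more than the other saline libraries (log2 fold change 8.03, standard error 1.004, adjusted p = 0.00376). In the Gsdmd-/- libraries Ugt1a2 was at 691, 814 and 721 CPM. The genes of the Ugt1a cluster share their last exons, so that reads there cannot be assigned to 1 of them. Abcc3, an exporter of glucuronides, had 2.94, 3.36 and 5.01 CPM in saline and 34.1, 126 and 128 CPM in PIL libraries (log2 fold change 4.66, standard error 0.57, adjusted p = 0.00376). The organic anion uptake transporter Slc22a8 was at 269, 271 and 442 and 695, 728 and 832 CPM (adjusted p = 0.0138), and Gsta2, a glutathione S-transferase whose close paralog Gsta1 may share its reads, at 119, 105 and 235 and 536, 478 and 636 CPM (adjusted p = 0.0104). All 4 were lowest among PIL libraries in PIL 1 or PIL 2. In the other direction, Ugt8a (ENSMUSG00000032854, chr3:125865271-125938619), which adds galactose to ceramide, had 131, 104 and 112 CPM in saline and 4.82, 5.31 and 3.91 CPM in PIL libraries (log2 fold change -4.62, standard error 0.21, adjusted p = 1.39e-05), with little spread in either group. Ugt8a was at 6.38, 3.71 and 5.29 CPM in the Gsdmd-/- libraries. Fmo5, a flavin monooxygenase, changed by -3.51, Ces1f, a carboxylesterase, by -2.75 and the organic anion transporter Slco3a1 by -1.45 on the log2 scale. Chosen after their values were seen, the carbonyl reductase Cbr1 changed by 2.83, Rdh16f2, of the retinol dehydrogenase family, by 2.81, Gsta4, which conjugates the lipid aldehyde 4-hydroxynonenal, by 2.55 and Ugt2b38, a close paralog of Ugt2b37, by -3.49, all called. Without saline 1 the calls of Gsta2, Slc22a8 and Gsta4 ended, and without PIL 2 that of Slc22a8 (adjusted p = 0.0537 to 0.0663), whereas the other 9 were called in all 9 fits. Of the lists, the transporters had 2 higher and 5 lower without PIL 2, the conjugating enzymes had 1 higher and 9 lower without saline 1, and on the 6 libraries alone the counts were 1 higher and 4 lower, and 1 higher and 8 lower.

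Some abundant enzymes of metabolism, chosen for the size of their difference among the genes called, were lower in all 3 PIL libraries. Acsm2 (ENSMUSG00000030945, chr7:119554340-119600690), a mitochondrial acyl-CoA synthetase, went from 4893, 3777 and 5267 CPM in saline to 901, 860.1 and 1361 CPM in PIL libraries (log2 fold change -2.16, standard error 0.22, adjusted p = 0.00185), or from 603 ± 103 to 147 ± 31.8 FPKM per length (mean ± SD, n = 3). Acy3, an aminoacylase that acts on mercapturates, went from 2413, 1439.9 and 1535 to 422, 595 and 516 CPM (log2 fold change -1.81, standard error 0.22, adjusted p = 0.00376). Selenop, the plasma carrier of selenium, was at 2548, 2089 and 2135 and 719, 884 and 1047 CPM (log2 fold change -1.35, standard error 0.17, adjusted p = 0.00376). These 3 genes showed no overlap and a PIL spread smaller than the gap. In the Gsdmd-/- libraries Acsm2 was at 1444, 1793 and 1580 CPM. Ldhd, which oxidises D-lactate, changed by -1.55 and Mep1a, a brush-border metalloprotease, by -0.93 on the log2 scale. Of 34 genes of fatty acid oxidation and PPAR targets, 5 were called lower and 2 higher (3.14% and 4.48% of all genes were), with a median of -0.26. The 5 became 2 without saline 1, 13 without PIL 3 and 1 on the 6 libraries alone. Cd36, a fatty acid uptake receptor, had 592, 389 and 446 CPM in saline and 66.8, 186 and 118 CPM in PIL libraries (adjusted p = 0.0141). Acot12, an acetyl-CoA thioesterase, changed by -1.13 and Hmgcs1, of sterol synthesis, by -1.06. Fabp1, the liver fatty acid binding protein, went the other way, from 0.147, 0.373 and 0.406 to 13.3, 18.9 and 7.22 CPM (log2 fold change 5.37, standard error 0.48, adjusted p = 0.000892). A list of 22 genes of peroxisomal lipid metabolism, drawn up after values were seen, had 6 called lower (3.14% of all genes were) and a median of -0.35. Among them, Acox3 and Amacr, which act on the branched-chain acyl-CoA of pristanic acid, changed by -1.26 and -1.76, Crot, which makes medium-chain acylcarnitines, by -1.62, and Agps, an enzyme of plasmalogen synthesis, by -2.18. The calls of Mep1a, Cd36 or Hmgcs1 ended in 7 of the 9 fits, all but those without PIL 1 or PIL 3 (adjusted p = 0.0503 to 0.132), and the other 10 were called in all 9.

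Calls among genes that mark the segments of the nephron were near or below the share over all genes. Of 24 genes of proximal tubule identity and uptake, such as megalin and the glucose and phosphate carriers, 1 was called lower (3.14% of all genes were), with a median log2 fold change of -0.26. Their median in PIL 1, 2 and 3 was -0.74, -0.26 and 0.02 from the saline mean on the log2 scale. Of the 29 genes of the loop of Henle, distal tubule and collecting duct, 1 was called higher (4.48% of all genes were). Their median was -0.17, with -0.63, -0.39 and 0.30 in PIL 1, 2 and 3. PIL 1 was thus lowest and PIL 3 at or above saline in both lists. Without PIL 3, 6 of the 24 and 11 of the 29 were called lower, and limma-voom called 9 and 15 lower. Mitochondrial transcripts took 7.22%, 9.71% and 13.3% of the counts in PIL 1, 2 and 3, against 10.8% to 12.8% in saline, and their part in these levels was not tested.

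**Figure D3:**
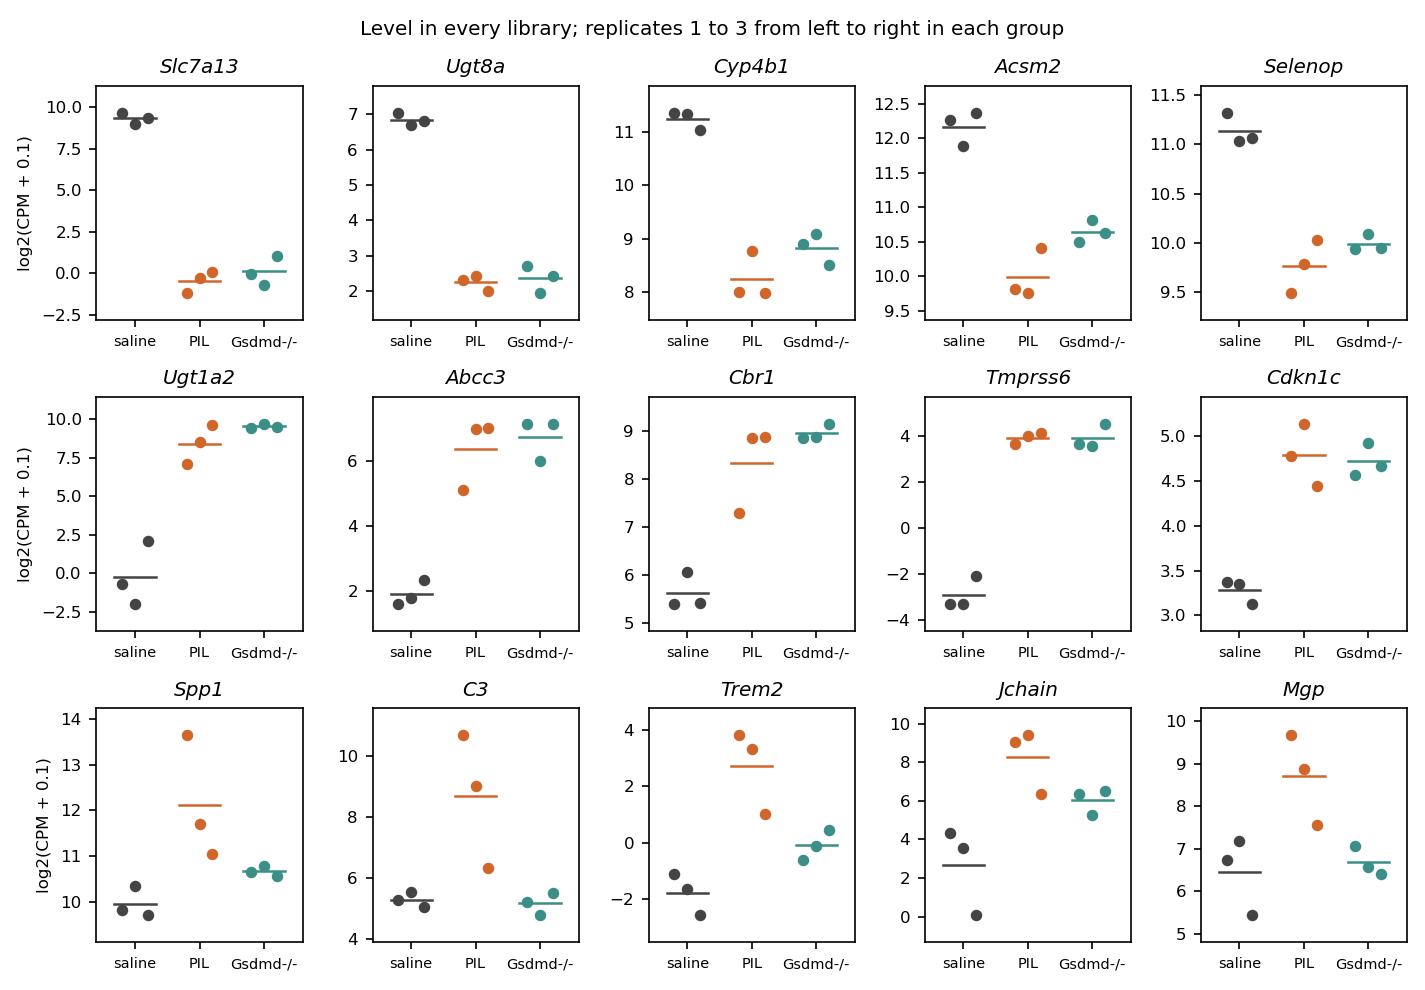
Level of 15 genes in each of the 9 libraries as log2(CPM + 0.1), with replicates 1 to 3 from left to right in each group and a bar at the mean of the logs. The top row shows genes lower and the middle and bottom rows genes higher in every PIL library. In the bottom row the PIL libraries lay far apart with PIL 3 lowest, such as C3 at 1633, 516 and 79.2 CPM. Those of Ugt1a2, in the middle row, were also far apart, at 134, 369 and 788 CPM.

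Of 22 tubular injury and repair genes 6 were called higher in PIL kidney (4.48% of all genes were), to unequal degrees in the 3 libraries, and 16 were not called. Spp1 (ENSMUSG00000029304, chr5:104435118-104441050), which encodes osteopontin, a matrix protein that injured tubules secrete, had 903, 1293 and 831 CPM in saline and 12884, 3320.2 and 2100.4 CPM in PIL libraries (log2 fold change 2.596, standard error 0.59, adjusted p = 0.0318). PIL 1 held by far the most, and no PIL library overlapped saline. In the Gsdmd-/- libraries it was at 1604, 1769.7 and 1518 CPM. The median log2 fold change of the 22 was 1.69, and summed they reached 17567, 5137 and 3196 CPM in PIL against 1976, 2492 and 1699.8 CPM in saline libraries. Vcam1, an adhesion molecule of injured proximal tubule and vessels, had 12.5, 22.6 and 9.62 CPM in saline and 125, 85.4 and 36.9 CPM in PIL libraries (log2 fold change 2.47, standard error 0.46, adjusted p = 0.0161). Cd44, the hyaluronan receptor, changed by 1.91 and the annexin Anxa3 by 1.81 on the log2 scale. The protease inhibitor Slpi, outside the list, was at 1.40, 0.896 and 0.203 CPM in saline and 102, 68.8 and 3.24 CPM in PIL libraries (log2 fold change 6.13, standard error 1.14, adjusted p = 0.0166), with PIL 3 close to saline. Chosen after its values were seen, the repair factor Sox9 was at 0.662, 1.34 and 0.881 and 13.8, 6.74 and 1.58 CPM (adjusted p = 0.0340). Havcr1 (KIM-1, the injury marker of proximal tubule), also chosen so, had 3.68, 4.55 and 1.29 CPM in saline and 262, 19.1 and 0.527 CPM in PIL libraries (adjusted p = 0.0835), so that PIL 3 lay below every saline library. Lcn2 was likewise spread, at 6.25, 30.4 and 0.813 and 433, 98.9 and 3.16 CPM (adjusted p = 0.127). Every fit that left out 1 library, save that without PIL 3, ended 2 to 6 of the 6 calls named here (adjusted p = 0.0503 to 0.130), none was called on the 6 libraries alone, and the list's count ran from 0 without saline 1 or PIL 2 to 14 without PIL 3.

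Some genes of plasma proteins that liver is best known to make were called higher too. Apoe, the apolipoprotein that macrophages and injured tissue also make, had 280.3, 446 and 232 CPM in saline and 4450.4, 2241 and 619.6 CPM in PIL libraries (log2 fold change 2.93, standard error 0.59, adjusted p = 0.0215). A list of plasma proteins drawn up after values were seen had 8 of 20 tested members called higher (4.48% of all genes were), 1 lower and 11 not called, with 5 higher without saline 1 and 3 on the 6 libraries alone, and a median of 1.59. Chosen in the same way, the iron carrier transferrin (Trf) was at 29.9, 23.3 and 23.1 and 182, 159 and 83.0 CPM (log2 fold change 2.47, standard error 0.27, adjusted p = 0.00245) and albumin (Alb) at 5.44, 7.47 and 5.89 and 13.4, 21.4 and 20.8 CPM (log2 fold change 1.56, standard error 0.23, adjusted p = 0.00822). Albumin was low in all libraries but its groups did not overlap. Apob, the scaffold of lipoproteins, changed by 0.98, the vitamin D carrier Gc by 2.88 and Fgb, a chain of fibrinogen, by 4.02 on the log2 scale, and Gc and Fgb were highest in PIL 1 (615 and 82.2 CPM). Trf, Alb and Apob were called in all 9 fits that left out 1 library. Leaving out saline 1, saline 2, saline 3 or PIL 2 ended the call of Apoe, Fgb or Gc (adjusted p = 0.0529 to 0.0954).

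Of 30 macrophage and dendritic cell genes 14 were called higher in PIL kidney (4.48% of all genes were), with 29 above 0 and a median log2 fold change of 1.85. Trem2 (ENSMUSG00000023992, chr17:48346401-48354147), a lipid-sensing receptor of macrophages, had 0.368, 0.224 and 0.0678 CPM in saline and 14.1, 9.84 and 1.96 CPM in PIL libraries (log2 fold change 5.27, standard error 0.83, adjusted p = 0.00965), from 0.0430 ± 0.0296 to 1.88 ± 1.38 FPKM per length (mean ± SD, n = 3). The SLAM-family receptor Cd84 went from 1.18, 1.42 and 0.745 to 11.9, 8.29 and 4.59 CPM (log2 fold change 2.89, standard error 0.41, adjusted p = 0.00676) and the tetraspan protein Ms4a7 from 2.87, 1.49 and 1.96 to 29.0, 17.8 and 6.997 CPM (log2 fold change 3.09, standard error 0.52, adjusted p = 0.0121). In all 3 the order was PIL 1, then PIL 2, then PIL 3, and PIL 3 was still above every saline library. Lysozyme (Lyz2), chosen after its values were seen, had 75.0, 93.3 and 24.9 CPM in saline and 605, 358 and 121 CPM in PIL libraries (adjusted p = 0.0412). The myeloid receptor gene Cd300e was highest in PIL 2, at 1.57, 22.6 and 5.42 CPM in the PIL libraries against 0.147, 0.224 and 0 in saline (adjusted p = 0.0251). Fc receptors bind the antibody of immune complexes and signal through ITAM motifs, for which the list held 17 genes. Of these 4 were called higher (4.48% of all genes were) and the median was 1.70, with 0 called without saline 1, saline 3 or PIL 2 and 13 without PIL 3 (edgeR, 14 were higher at an unadjusted p under 0.05 with all libraries, 8 by DESeq2 and 17 by limma-voom). The adaptor Tyrobp changed by 2.11, the kinase Syk by 2.24, the kinase Fgr by 2.78 and the adaptor Lcp2 by 1.75 on the log2 scale. Trem2, Cd84 and Ms4a7 were called in all 9 fits that left out 1 library, whereas 3 to 6 of the 9 calls named here ended in each fit but that without PIL 3 (adjusted p = 0.0503 to 0.148). The macrophage list's count ran from 3 without PIL 2 to 23 without PIL 3 and was 1 on the 6 libraries alone. Summed, the list reached 2560.4, 1716 and 648 CPM in the PIL, 506, 692 and 305 CPM in the saline and 495, 420.3 and 562 CPM in the Gsdmd-/- libraries, and saline 2 exceeded PIL 3.

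Chemokines, cytokines and complement were summed highest in PIL 1 and lowest of the PIL libraries in PIL 3. Saline 2 exceeded PIL 3 in the sums of cytokines (474 against 410 CPM) and complement (1009 against 887 CPM). For chemokines it did not (576 against 586 CPM). Of 26 chemokine and chemokine receptor genes 9 were called higher, of 28 cytokine and receptor genes 6, and of 25 complement genes 6 (4.48% of all genes were), with medians of 1.55, 1.09 and 1.16. C3 (ENSMUSG00000024164, chr17:57203970-57228136), the central component of complement, had 38.4, 45.9 and 33.1 CPM in saline and 1633, 516 and 79.2 CPM in PIL libraries (log2 fold change 4.25, standard error 0.87, adjusted p = 0.0224). The PIL libraries spanned a wide range above a narrow saline group, and the Gsdmd-/- libraries were at 36.8, 27.3 and 45.7 CPM. C1s1, the protease that starts the classical pathway, had 20.1, 21.5 and 15.3 and 48.6, 47.8 and 28.9 CPM (adjusted p = 0.0231). Among cytokines, Il33, an alarmin of the interleukin-1 family, had 8.97, 12.0 and 7.93 CPM in saline and 44.7, 39.0 and 17.0 CPM in PIL libraries (log2 fold change 1.80, standard error 0.33, adjusted p = 0.0163), and its receptor Il1rl1 had 0.0735, 0.0747 and 0.0678 and 1.68, 1.67 and 1.13 CPM (adjusted p = 0.00376). Il1rl1 was near the floor in saline, with 3 counts over the 3 libraries against 73 in PIL, a ratio of 21.2 (exact 95% interval 6.98 to 105, counting error only). Il2rg, the shared chain of interleukin-2 family receptors, changed by 2.06, the chemokine Cxcl14 by 1.94 and the fractalkine receptor Cx3cr1 by 2.00 on the log2 scale. Of the 7 calls named here, Il1rl1 and Cxcl14 held in all 9 fits that left out 1 library, and 1 to 5 ended without saline 1, saline 2, saline 3, PIL 1 or PIL 2 (adjusted p = 0.0503 to 0.0954). Without PIL 2 the chemokine and the cytokine list had 1 call each, without saline 1 the complement list had 0 (edgeR), and without PIL 3 the lists had 17, 20 and 15. For complement, 14 genes were higher at an unadjusted p under 0.05 with all libraries, 11 were called by DESeq2 and 18 by limma-voom.

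Among genes of other leukocytes, a minority of those of the B lineage were called higher, and those of T cells and neutrophils mostly did not pass. The joining chain of IgA and IgM, Jchain (ENSMUSG00000067149, chr5:88519809-88527891), had 20.4, 11.8 and 0.948 CPM in saline and 539, 681 and 81.8 CPM in PIL libraries (log2 fold change 5.30, standard error 1.04, adjusted p = 0.0200), highest in PIL 2. Pou2af1, a B-cell coactivator, had 0.662, 0.373 and 0.406 and 19.0, 18.6 and 1.88 CPM (log2 fold change 4.76, standard error 0.84, adjusted p = 0.0135). Cd79b, of the B-cell receptor, was called at 12.2, 5.25 and 2.41 CPM in PIL against 0.956, 0.672 and 1.29 CPM in saline libraries (adjusted p = 0.0280), and so was the B-cell chemokine Cxcl13, at 5.94, 39.9 and 10.0 against 1.25, 2.39 and 0.203 CPM (adjusted p = 0.0286). Fcrl5, an Fc receptor-like protein of B cells, had 1 count over the 3 saline libraries and 152 over the PIL libraries, a ratio of 133 (exact 95% interval 23.4 to 5269, counting error only). In all, 5 of 15 B and plasma cell genes were called higher (4.48% of all genes were), with a median of 2.07. Of 18 T and NK cell genes 1 was called higher (4.48% of all genes were), with a median of 1.07 and 16 above 0. It was Cd2, a T and NK cell adhesion molecule, at 7.57, 3.04 and 2.78 CPM against 0.809, 1.34 and 0.474 CPM (adjusted p = 0.0451). In this list 6 were higher at an unadjusted p under 0.05, DESeq2 called 3 higher, and limma-voom called 3 higher and 1 lower. Among 11 neutrophil genes 0 were called by edgeR and 0 by DESeq2, with 2 higher at an unadjusted p under 0.05 and 2 called by limma-voom. The neutrophil list summed to 54.9, 81.1 and 8.33 CPM in saline and 478, 203 and 21.0 CPM in PIL libraries, so that the groups overlapped and PIL 3 lay below saline 1 and saline 2. Each fit that left out 1 library, save that without PIL 3, ended 2 to 6 of the 6 calls named here (adjusted p = 0.0503 to 0.148), all 6 ended on the 6 libraries alone (adjusted p = 0.0622 to 0.105), and the B-cell count was 0 there and without saline 1 or PIL 2, and 9 without PIL 3 (with all libraries 10 were higher at an unadjusted p under 0.05, 9 by DESeq2 and 8 by limma-voom).

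Interferon genes gave few calls. Of 37 type I interferon-stimulated genes, 0 were called by edgeR, 1 was lower at an unadjusted p under 0.05, DESeq2 called 1 lower, and limma-voom called 2 higher and 3 lower. They summed to 1127, 3453 and 945 CPM in the saline and 1632, 1346 and 1074 CPM in the PIL libraries, so that saline 2 stood above every other library of the 6, and the median log2 fold change was -0.39. The 30 genes of MHC class II and the interferon-gamma response had 1 called higher (4.48% of all genes were) and a median of 0.48, with 22 above 0. In this list 8 were higher and 2 lower at an unadjusted p under 0.05, DESeq2 called 5 higher and 2 lower, limma-voom 10 higher and 6 lower, and edgeR called 8 higher when PIL 3 was left out. Summed, they had 3739.9, 6335 and 1675 CPM in saline and 9741, 4976 and 3071 CPM in PIL libraries, and saline 2 was above PIL 2 and PIL 3. Of 27 inflammasome and gasdermin genes 4 were called higher (4.48% of all genes were), with 0 without saline 1 or PIL 2 or on the 6 libraries alone and 8 without PIL 3 (edgeR, 9 were higher at an unadjusted p under 0.05 with all libraries, 7 by DESeq2 and 14 by limma-voom). Among the 4 was Casp1, the protease that activates interleukin-1, with 2.65, 2.31 and 2.30 CPM in saline and 10.3, 7.82 and 5.19 CPM in PIL libraries (log2 fold change 1.68, standard error 0.29, adjusted p = 0.0130). Its call ended without saline 1 or PIL 2 (adjusted p up to 0.0555). Gsdmd, the pore-forming protein, overlapped between the groups, at 7.06, 11.6 and 4.40 and 6.56, 20.1 and 10.7 CPM (adjusted p = 0.319).

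Of 27 matrix and fibroblast genes 7 were called higher (4.48% of all genes were), with a median of 1.19. Biglycan (Bgn), a proteoglycan of the interstitium, had 248, 289 and 144 CPM in saline and 1224, 768 and 377 CPM in PIL libraries (log2 fold change 1.80, standard error 0.41, adjusted p = 0.0329), and matrix Gla protein (Mgp), an inhibitor of calcification, had 107, 144 and 43.2 and 817, 468 and 188 CPM (log2 fold change 2.32, standard error 0.55, adjusted p = 0.0370). In both the order was again PIL 1, PIL 2 and PIL 3, with PIL 3 above each saline library. Pdgfrb, the growth factor receptor of pericytes and fibroblasts, was more even, at 62.5, 47.9 and 52.9 CPM in saline and 131, 104 and 94.4 CPM in PIL libraries (log2 fold change 1.01, standard error 0.16, adjusted p = 0.0107). Thrombospondin Thbs2 changed by 1.65, the elastin crosslinker Loxl1 by 1.78 and the collagen-binding protein Tgfbi by 1.92 on the log2 scale. The latent TGF-beta binding protein Ltbp2 changed by 4.24, but its groups overlapped. It was at 0.588, 0.672 and 3.52 CPM in saline and 71.3, 18.4 and 2.48 CPM in PIL libraries. Mmp12, the macrophage elastase, chosen after its values were seen, had 0.662, 0.747 and 1.29 and 40.6, 12.1 and 3.54 CPM (adjusted p = 0.0169). On the 6 libraries alone all 8 calls named here ended (adjusted p = 0.0539 to 0.142). Of the 8, Pdgfrb alone held in all 9 fits that left out 1 library, and each fit but that without PIL 3 ended 3 to 7 of them (adjusted p = 0.0506 to 0.159). The list's count ran from 1 without saline 1 to 20 without PIL 3. Of 20 basement membrane genes 14 had a fold change above 0, with a median of 0.17, and 4 were called higher when PIL 3 was left out. With all libraries 0 were higher by edgeR (5 at an unadjusted p under 0.05, 1 by DESeq2, 6 by limma-voom) and 2 were called lower (3.14% of all genes were), the alpha chains Col4a4, at 342, 311 and 329.6 CPM in saline and 133, 187 and 237 CPM in PIL libraries (adjusted p = 0.0309), and Col4a5, at 56.5, 44.4 and 85.2 and 27.3, 30.8 and 40.02 CPM (adjusted p = 0.0425), both with their lowest value in PIL 1. Both calls ended in 7 of the 9 fits, with adjusted p up to 0.109 and 0.142.

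Of 16 podocyte genes 8 were called higher (4.48% of all genes were), with a median of 0.54. Podocytes are the cells that cover the glomerular capillaries and hold the slit diaphragm. Their cell-cycle inhibitor Cdkn1c had 10.2, 10.1 and 8.60 CPM in saline and 27.5, 35.1 and 21.7 CPM in PIL libraries (log2 fold change 1.55, standard error 0.19, adjusted p = 0.00376). The 3 PIL libraries were close together and above saline. Ptpro, a receptor phosphatase of the podocyte foot process, changed by 0.99 and Nes, which encodes the filament protein nestin, by 1.54 on the log2 scale. The list's sum was 688, 619 and 931 CPM in saline, 894, 971 and 1116 CPM in PIL and 1061, 1135 and 1113 CPM in Gsdmd-/- libraries, and saline 3 lay above PIL 1. Of 19 endothelial genes 4 were called higher (4.48% of all genes were), with 0 without saline 1, saline 3 or PIL 2 or on the 6 libraries alone (edgeR, 6 were higher at an unadjusted p under 0.05 with all libraries, 5 by DESeq2 and 12 by limma-voom). Among the 4 was Eng, a TGF-beta co-receptor, at 147, 173 and 135 CPM in saline and 307, 324 and 210.3 CPM in PIL libraries (adjusted p = 0.0242). Cdkn1c was called in all 9 fits that left out 1 library. The podocyte count was 2 without saline 1 and 1 on the 6 libraries alone. Without saline 1 or PIL 2 the calls of Ptpro and Eng ended, without saline 1 also that of Nes and without saline 3 that of Eng (adjusted p up to 0.0965).

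Several genes of the urothelium, which lines the renal pelvis, were at or near 0 in PIL libraries. Krt15, a basal keratin, had 3.68, 2.84 and 3.05 CPM in the 3 saline libraries and 0 counts in all 3 PIL libraries, at least 50.8-fold lower against 3 counts over the group. Krt5, its basal partner, had 121 counts over the saline and 1 over the PIL libraries, a ratio of 139 (exact 95% interval 24.4 to 5526, counting error only). Uroplakins Upk1b, Upk2 and Upk3a, which form the plaques of the apical surface and were chosen after their values were seen, changed by -4.93, -4.58 and -4.82 on the log2 scale. A urothelium list drawn up after values were seen had 6 of 11 tested genes called lower (3.14% of all genes were), 2 without PIL 2 and 3 on the 6 libraries alone. It summed to 48.2, 45.2 and 88.2 CPM in saline and 56.7, 15.5 and 4.44 CPM in PIL libraries, where PIL 1 did not stand apart from saline. The keratin Krt20 and Sprr1a did not pass. They held most of the sum in PIL 1, at 25.1 and 27.0 CPM, and were also looked at after their values were seen. How much pelvis each sample held is not stated, and its part in these values was not tested. Capn13, a calpain, had 87 counts over the saline and 0 over the PIL libraries, at least 33.3-fold lower against 3 counts over the group. Mpped1, a metallophosphoesterase domain protein, had 340 counts against 2, a ratio of 195 (exact 95% interval 53.6 to 1616, counting error only). Upk2, Upk3a and Mpped1 were called in all 9 fits that left out 1 library, whereas leaving out saline 1, saline 3, PIL 1 or PIL 2 ended 1 to 4 of the calls of Krt15, Krt5, Upk1b and Capn13 (adjusted p = 0.0520 to 0.103).

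By the rule of at least 1 CPM in every library of one group and at most 3 counts over the other, of the PIL and saline groups 3 genes were found in PIL alone and 8 in saline alone, 4 of the latter on the Y chromosome. Tmprss6, a membrane protease that in liver restrains hepcidin, led the first, with 0, 0 and 0.136 CPM in saline and 12.7, 16.1 and 17.4 CPM in PIL libraries. Its ratio was 317 (exact 95% interval 87.4 to 2622, counting error only), edgeR gave an adjusted p of 0.000339, and the call held in all 9 fits that left out 1 library. In the Gsdmd-/- libraries Tmprss6 was at 12.4, 12.0 and 23.0 CPM. Il1rl1 was at 0.480, 0.833 and 0.535 and Fcrl5 at 0, 0 and 0.134 CPM there. Hdc, which makes histamine, ran against the usual order, with 5.22, 6.65 and 8.33 CPM in saline and 10.4, 148 and 760.3 CPM in PIL libraries (log2 fold change 5.50, standard error 1.21, adjusted p = 0.0287). PIL 3 held the most and PIL 1 little more than saline. Dnase1, the secreted nuclease, fell from 251, 255 and 182 to 54.7, 88.6 and 111 CPM (log2 fold change -1.43, standard error 0.31, adjusted p = 0.0286). The chaperone Hsp90aa1 was at 838, 674 and 621 and 312, 268 and 392 CPM (log2 fold change -1.13, standard error 0.17, adjusted p = 0.00833) and was called in all 9 fits. Leaving out any library but PIL 3 ended the call of at least 1 of Hdc and Dnase1 (adjusted p = 0.0542 to 0.118).

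**Figure D4:**
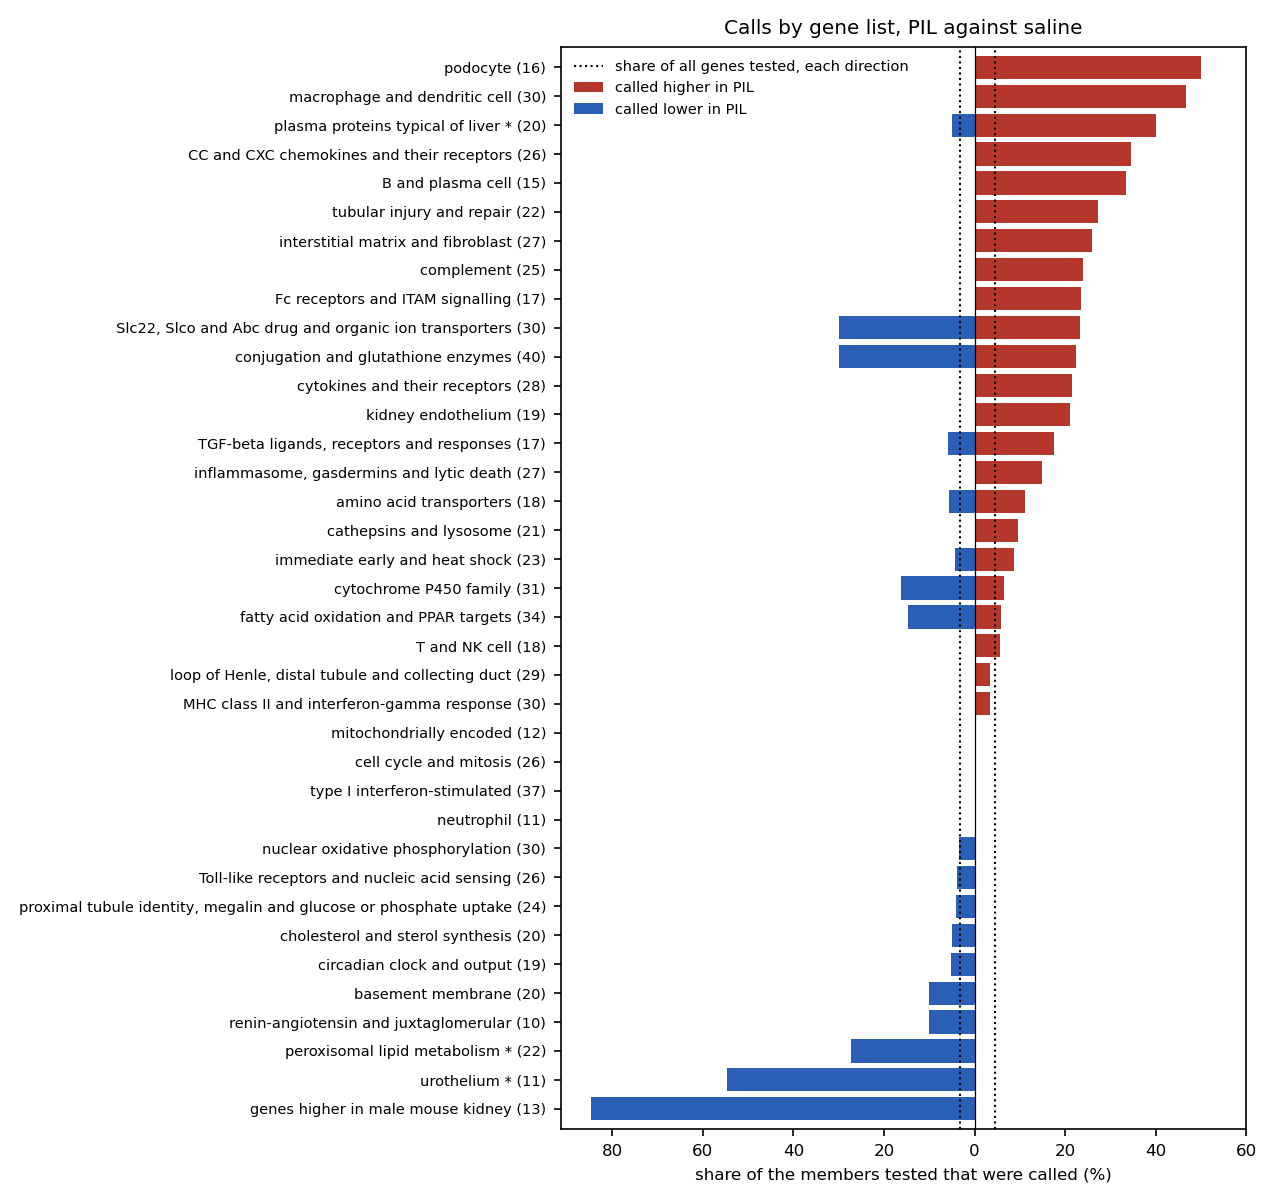
Share of the tested members of each list (number in brackets) that edgeR called higher (red, to the right) or lower (blue, to the left) in PIL kidney, for lists with at least 10 tested genes, with an asterisk for lists drawn up after values were seen. The dotted lines stand at the share of all genes tested, 4.48% higher and 3.14% lower, and the podocyte and macrophage lists reach furthest to the right.

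**Figure D5:**
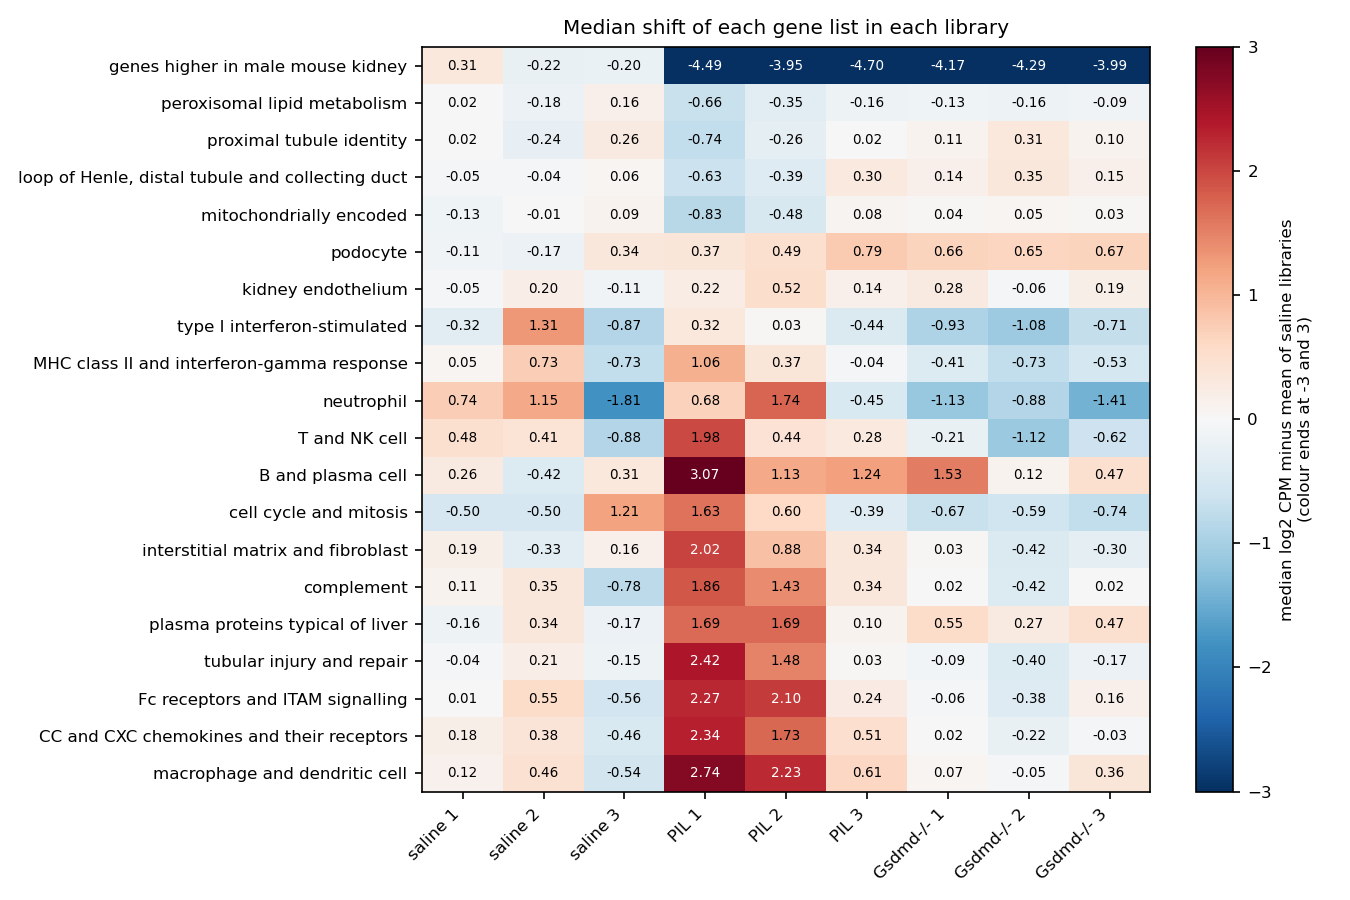
Median over each list of the log2 CPM minus the mean of the saline libraries, in each of the 9 libraries, with the value written in each cell. The macrophage list had 2.74, 2.23 and 0.61 in PIL 1, 2 and 3, and the male-biased list -4.49, -3.95 and -4.70.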

How the data were processed

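Kidney RNA of 9 mouse libraries was sequenced, 3 each from WT saline, WT pristane and Gsdmd-/- mice. The authors aligned reads to mm10, counted them per gene with HTSeq and deposited raw read counts. HISAT2 and TopHat2 are both named, with no versions given in the sources used here. The authors also deposited FPKM, the counts per kilobase and library size, used here only for levels per length. Genes passing filterByExpr (14069 of 21935) were normalized by TMM. Groups were compared over 9 libraries by the robust quasi-likelihood F-test of edgeR, with 6 residual degrees of freedom, Benjamini-Hochberg adjusted, called at 0.05. Standard errors were the log2 fold change divided by the root of F. CPM used TMM library sizes and log2 CPM a prior count of 2. The test was run on simulated data with known answers. These had the same spread in all genes and groups, so they do not cover the unequal spread of the groups here. Totals of 13311063 to 16299328 counts limit the precision of low genes.

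Groups came from sample titles. Members, lists and tests were chosen with earlier results of these data known. Named genes were the 10 called genes per direction with the largest fold change that had at least 50 normalized counts and no overlap, the 10 called with the largest difference in CPM, up to 4 per list with the lowest p (called or not), called members of lists of up to 20 genes, Gsdmd, Casp1, Casp4, Irf3 and Irf7, and all-or-none genes. Others, which are Kap, Cyp4a12b and those so marked in the text, were chosen after their values were seen, as were 3 lists (urothelium, plasma proteins, peroxisomal lipid metabolism) beside the 40 others. A few genes that the rule names are not reported here. Lists are described by counts and medians, with no set test. The alternatives tried were scaling by RLE or by the upper quartile, a filter of at least 10 counts in every library or none, DESeq2, limma-voom with quality weights per sample, a replicate block, 6 libraries only, each library left out and, chosen after seeing the data, DESeq2 on 6 libraries. edgeR 4.0.16, DESeq2 1.42.0 and limma 3.58.1 were run in R 4.3.3.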

Additional observations from a re-analysis of the deposited data

How the results depend on the processing

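All 99 called genes named in the text kept their direction in each alternative that tested them. The Sprr1a log2 fold change, not called, changed sign to 0.99 without saline 3, 0.29 without PIL 2 and 0.43 without PIL 3, in a range of -2.24 to 0.99. Those of Mki67 (0.46, with a range of -0.28 to 1.87) and Top2a (0.66, with a range of -0.089 to 2.47), not called, changed sign as well. The number of genes called was 1072 (630 higher, 442 lower) and stayed within 1.5 times of this with RLE scaling, upper-quartile scaling, no filter and at least 10 counts in every library. It was 2278 (1313 higher, 965 lower) with DESeq2, 6271 (3238 and 3033) with limma-voom weighted by sample quality, 130 (49 and 81) with the 6 libraries alone, and 1345 (835 and 510) with DESeq2 on the 6 libraries, a fit chosen after seeing the data. Leaving out each of the 9 libraries in turn gave 226 to 3684 genes, 97 to 1902 higher and 127 to 1782 lower. The lowest total came without PIL 2 and the highest without PIL 3, and a fit with fewer libraries has fewer residual degrees of freedom. Otherwise the cause was not tested. The share of calls that were higher was 58.8%, against 37.7% with the 6 libraries alone and 68.4% with upper-quartile scaling, which moved the median of all genes to 0.07 on the log2 scale. Of the 1072 calls 130 were called with the 6 libraries alone and 1069 with DESeq2.

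With the replicate number as a block 962 genes were called (561 higher, 401 lower), 836 of them among the 1072. Same-numbered saline and PIL libraries deviated with correlations of -0.03, 0.19 and 0.29. Saline 1 and saline 2 did not correlate best with their own number, whereas saline 3 did. These correlations cannot decide whether the samples share more than a number. Of the 99 named calls 60 were lost with the 6 libraries alone, 50 without saline 1, 46 without PIL 2, 34 without saline 3, 23 without saline 2, 16 without PIL 1, 15 to 18 without a Gsdmd-/- library and 0 without PIL 3, against 7 under the block and 4 without a filter. The filter of at least 10 counts in every library kept 71 of the 99, lost 1 and left the others untested. With at least 10 counts in every library, 3127 genes did not overlap between the groups, against 3543 (25.2%) among all genes tested. These counts are over different sets of genes, so they do not compare shares.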

Other observations

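Saline 3 held genes of adipose tissue that the other 5 libraries held at lower levels, a pattern seen in the values and not tested. Ucp1, the uncoupling protein of brown fat, was at 0, 0 and 19.3 CPM in the saline and 0.112, 0.119 and 0.0752 CPM in the PIL libraries, Adipoq, a hormone of fat cells, at 2.57, 0.0747 and 9.96 and 0.112, 0 and 0.677 CPM, and Cfd, the protease adipsin, at 10.3, 0.448 and 46.1 and 0.224, 0 and 1.96 CPM. Of 8 adipose genes tested 0 were called by edgeR, 4 were lower at an unadjusted p under 0.05, DESeq2 called 2 lower, and limma-voom called 2 higher and 3 lower.

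Proliferation genes did not separate the groups either. Mki67, a marker of cycling cells, had 5.88, 4.63 and 31.6 CPM in saline and 34.6, 17.2 and 5.87 CPM in PIL libraries, and Top2a, a topoisomerase of dividing cells, 2.94, 1.94 and 21.0 and 24.5, 11.2 and 5.12 CPM, so that saline 3 was near PIL 1 and PIL 3 near saline 1 and 2. Of 26 cell cycle genes 0 were called by edgeR, 4 were higher at an unadjusted p under 0.05, DESeq2 called 1 higher and limma-voom 11 higher. Ucp1, Mki67 and Top2a were chosen after their values were seen.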
